A study of Drosophila melanogaster with 2 samples.

Results

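The regions described here are distal intronic peaks of Bteb2-eGFP, mapped in whole embryos of Drosophila melanogaster, the fruit fly. They are peaks of the authors' reproducible (optimal) set whose summit lies over 1000 bp from every annotated transcription start site (TSS), inside a gene and in no exon of any transcript. Of the 3350 optimal peaks on the dm6 build 786 met this rule, or 23.5% (exact 95% interval 22.0 to 24.9). The closest kept summits lay 1002, 1010 and 1011 bp from a TSS, and the closest intronic summits left out lay 992, 993 and 995 bp away. The other optimal peaks were 2294 promoter peaks within 1000 bp of a TSS, 226 distal intergenic peaks and 44 distal peaks in exons.

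The data come from chromatin immunoprecipitation followed by sequencing, in which the antibody recognises the green fluorescent protein (GFP) tag. The 2 libraries form 1 group of whole embryos of pooled sex at 4 to 20 h, from a transgenic line with GFP at the C terminus of Bteb2, and the labels number them as biological replicates 1 and 3. The tagged protein stands in for the native one, a whole embryo mixes all cell types, and no control sample was analysed here. Reads per library were not analysed either, so the depth is unknown, and regions that many such experiments recover were not told apart from sites of the factor.

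Klf15 encodes Bteb2, and its family (KLF) is made of transcription factors with zinc fingers that bind GC-rich and CACCC-type boxes. Many enhancers of Drosophila developmental genes lie in long introns, often in the introns closest to the promoter. A distal intronic peak marks a region of DNA recovered with the tagged protein, and does not by itself tell which gene, if any, the region acts on.

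Some distal intronic peaks had a sequence layout that recurs in the results: a centre poor in G and C, and short words that read outward on both sides. The 4 windows below reach 140 bp to each side of the summit and belong to the strongest peaks with a leading word on each side, among the arms from which sequence is shown. Capitals mark the word CACTGT and the related words CAGTGT and CCACTG as well as AGTGTA and also TCAGTG, where they read 5′ to 3′ away from the summit, so that on the left they appear as reverse complements. All windows are printed on the plus strand of the RefSeq Release 6 sequence (dm6), and lie at chr2L:6612560-6612840, chrX:13640384-13640664, chr3L:8458194-8458474 and chr2L:3655697-3655977, in the order given.
CG11050: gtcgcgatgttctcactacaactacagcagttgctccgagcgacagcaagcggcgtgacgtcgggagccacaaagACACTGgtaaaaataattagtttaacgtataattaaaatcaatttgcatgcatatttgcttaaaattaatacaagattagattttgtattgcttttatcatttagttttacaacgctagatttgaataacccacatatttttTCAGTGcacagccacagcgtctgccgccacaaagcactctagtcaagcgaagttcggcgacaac
NFAT: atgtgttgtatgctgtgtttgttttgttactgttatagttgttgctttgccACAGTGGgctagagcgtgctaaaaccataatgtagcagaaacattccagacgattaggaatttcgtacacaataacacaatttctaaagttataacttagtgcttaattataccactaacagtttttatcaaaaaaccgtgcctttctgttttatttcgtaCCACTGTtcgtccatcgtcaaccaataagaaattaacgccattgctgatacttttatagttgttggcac
Gug: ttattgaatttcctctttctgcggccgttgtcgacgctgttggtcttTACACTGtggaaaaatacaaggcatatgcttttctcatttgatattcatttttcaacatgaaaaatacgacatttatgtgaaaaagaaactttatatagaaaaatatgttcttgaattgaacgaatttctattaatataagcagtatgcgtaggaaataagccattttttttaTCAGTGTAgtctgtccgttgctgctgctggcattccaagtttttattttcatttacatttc
for: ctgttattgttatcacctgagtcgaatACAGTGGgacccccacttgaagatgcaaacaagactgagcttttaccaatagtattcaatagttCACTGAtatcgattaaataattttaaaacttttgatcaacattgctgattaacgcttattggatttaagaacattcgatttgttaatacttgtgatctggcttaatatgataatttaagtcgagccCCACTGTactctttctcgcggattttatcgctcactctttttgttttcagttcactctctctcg
The central 51 bases of the windows in CG11050 and Gug held 21.6% G and C, those in NFAT 25.5% and in for 27.5%. The summit in CG11050 lies in an intron of only 140 bp, so that window runs into exons on both sides. Its marked words lie at the ends of this intron, and were not told apart from splice site sequence. Its low central GC is that of a short intron between exons. The choice of windows fixes that each has a word on both sides, and says nothing of how common the layout is, which is counted further on.

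Other strong members lack outward words on both sides and are shown for contrast, with 100 bp to each side of the summit. The window in ush, at chr2L:480958-481158, holds the second strongest member and none of the 5 words reading outward. Those in Trl, at chr3L:14759429-14759629, and in Csk, at chr3R:11649577-11649777, are the strongest on the same arms with the forkhead core TGTTTAC, marked in capitals on either strand. The Csk window also holds outward copies of CCACTG and CACTGT on its right side, which are left in lower case.
ush: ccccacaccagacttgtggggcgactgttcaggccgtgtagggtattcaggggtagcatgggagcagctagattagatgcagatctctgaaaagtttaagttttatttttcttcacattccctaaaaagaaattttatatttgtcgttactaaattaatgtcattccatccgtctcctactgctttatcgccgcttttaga
Trl: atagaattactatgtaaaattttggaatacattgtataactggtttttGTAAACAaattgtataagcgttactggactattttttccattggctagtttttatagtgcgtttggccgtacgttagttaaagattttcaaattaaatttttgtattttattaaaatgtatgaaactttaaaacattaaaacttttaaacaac
Csk: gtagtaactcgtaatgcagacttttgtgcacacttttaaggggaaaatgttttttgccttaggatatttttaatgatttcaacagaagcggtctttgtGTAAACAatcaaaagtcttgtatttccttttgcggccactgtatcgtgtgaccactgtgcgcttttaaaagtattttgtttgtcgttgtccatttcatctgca
Over its whole length the Trl window is the poorest of these in G and C, at 23.9% GC. The ush window has 41.3% and the Csk window 36.8%. The central bases, counted as for the windows above, gave another order, with 29.4% in ush, 33.3% in Csk and 37.3% in Trl. Forkhead proteins bind the core marked here in many animals, but a match in a window is a description of the letters and not a site of binding.

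The strongest member of all lay in CG11050 and was also the strongest of the 3350 optimal peaks. Its signal, the authors' score for a peak, without units, was 1369 in the pooled list, 859 in replicate 1 and 516 in replicate 3. It ranked 1 in replicate 1 and 2 in replicate 3, so both libraries placed it at the top. The summit lay 1013 bp from a TSS of the same gene, in an intron of only 140 bp. The second strongest member lay in the first intron of ush, which encodes U-shaped, a cofactor of GATA factors. Its signal was 1155 pooled, 761 in replicate 1 and 387 in replicate 3. This summit was nearer to cbt, the gene of the KLF-type zinc finger protein Cabut, at 1370 bp, than to a TSS of ush, at 4838 bp. In Trl, which encodes the GAGA factor, the strongest member had a signal of 671 pooled, 385 in replicate 1 and 286 in replicate 3.

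Other hosts among the 15 strongest members had signals between 733 and 381. Tlk, the gene of the Tousled-like kinase, held a member of signal 546. In Raf, which encodes the kinase downstream of Ras, the strongest member had 416. The peak in norpA, the gene of the phospholipase C of phototransduction, had 400. NFAT, a transcription factor gene, had 398 and Gug, which encodes the corepressor Atrophin, 394. The member in trx, the gene of the histone methyltransferase Trithorax, reached 393 and that in for, which encodes a cGMP-dependent protein kinase, 381. CG32772, CG9837, CG12769, CG3726 and CG32486 hosted the others, with signals of 733, 554, 449, 427 and 393. Of these 15 members, the 2 in ush and CG32486 had a TSS of another gene as the nearest, cbt and CG16753.

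Both libraries recovered the members. All 786 were found in the relaxed list of replicate 1 and 785 in that of replicate 3. Among the 3350 strongest peaks of each replicate were 697 members (88.7%) in replicate 1 and 643 (81.8%) in replicate 3. Of all 786 members, 559 (71.1%) were in both lists, 138 were only in that of replicate 1, 84 were only in that of replicate 3, and 5 were missed by both. The share in both was 67.7% for distal intergenic peaks and 76.4% for promoter peaks. The optimal set was kept by the authors for its reproducibility between these libraries, so this agreement is partly built in. Members near one another are not separate observations: 44 peaks overlapped another member, with summits as close as 199 bp, and such pairs can match 1 peak of a replicate list.

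**Figure D1:**
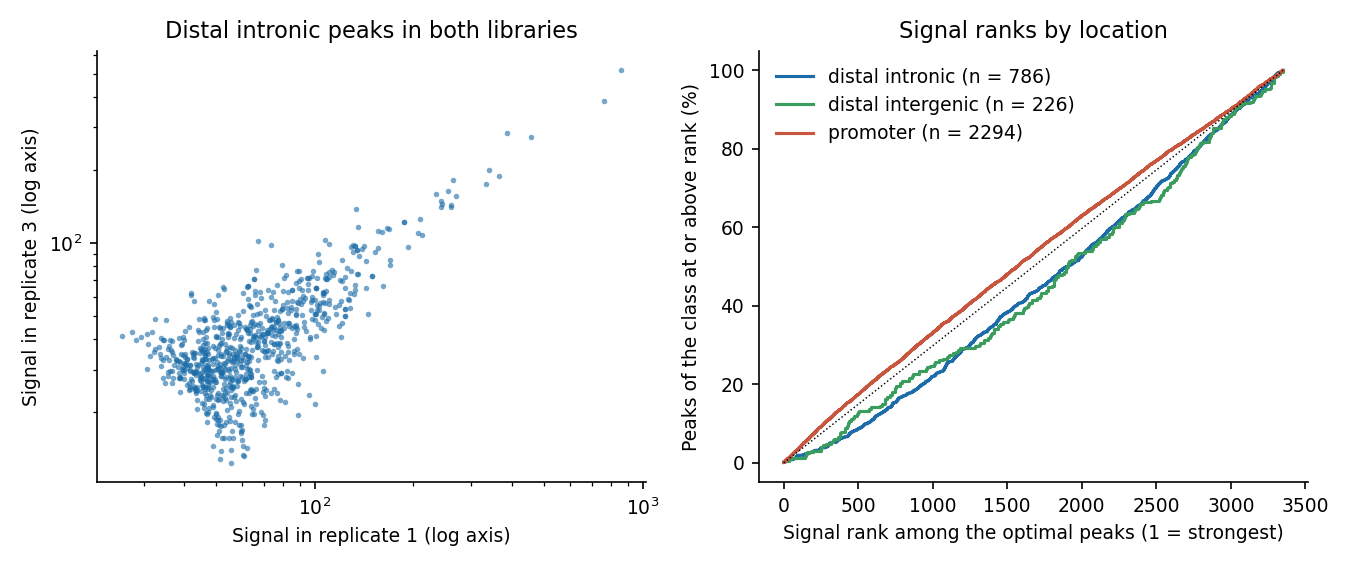
Left: signal of each distal intronic peak in replicate 1 (x) and replicate 3 (y), both on log axes, with 1 point per peak. Right: share of the peaks of a location class (y, in percent) at or above a signal rank (x, 1 is the strongest of 3350), where the dotted line marks an even spread over the ranks. The curves of distal intronic and distal intergenic peaks run together below the line and that of promoter peaks runs above it.

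Distal intronic peaks ranked below promoter peaks, and no difference from distal intergenic peaks was detected. Their median signal was 92.3 (quartiles 76.3 and 125, range 66.0 to 1369), against 92.3 for distal intergenic and 103 for promoter peaks. Of the members 341 (43.4%) were among the strongest 1675 optimal peaks. Among distal intergenic peaks 94 of 226 were (41.6%), an odds ratio of 1.08 with a 95% interval of 0.797 to 1.45 (p = 0.648, Fisher's exact test, both tails). Among promoter peaks 1222 were (53.3%), with a ratio of 0.672 (0.571 to 0.791, Fisher's exact p = 1.94e-06). Counted once per gene by its strongest peak, the ratio to promoter peaks was 0.893 and past the threshold no longer (Fisher's exact p = 0.272). That to intergenic peaks was 1.41 and passed it under this count (exact p = 0.0487). This count keeps members by their signal, the measure compared, which favours strong members by construction. The ratios under it therefore cannot tell whether the classes differ. Members made up 4 of the strongest 25 optimal peaks, 15 of the strongest 100, 68 of the strongest 500 and 173 of the strongest 1000.

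Within their genes the members lay mostly in the first intron. In the canonical transcript, or else the longest that holds the summit, 432 (55.0%, exact interval 51.4 to 58.5) were in the first intron, 220 (28.0%) in intron 2, 69 (8.78%) in intron 3 and 65 (8.27%) further on. The reference for this comparison was 5461 distal intronic summits among the lower-ranked 15000 of the authors' 30000 pooled candidate peaks, after removal of overlaps with the optimal set. They come from the same libraries, are weaker by construction and may include background. Of these comparison peaks 2276 (41.7%) were in first introns and 923 (16.9%) in intron 4 or later. The odds ratio for a first intron was 1.71 (1.47 to 1.99, Fisher p = 2.75e-12). Of the distal intronic sequence in canonical transcripts of protein-coding genes, first introns hold 28.1%. The canonical transcript held the summit of only 689 members (87.7%), so this share and the 55.0% are not measured alike. Against the 938 distal intronic peaks ranked just below the optimal set, of which 50% were in first introns, the ratio was 1.22 (exact p = 0.0421). The tests here run over peaks of 1 pooled set, several of which can share a gene, so their p-values describe this list and not the spread between embryo collections.

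Members also lay closer to start sites than comparison peaks did. The median distance to the nearest TSS was 3152 bp (range 1002 to 49852) for members and 4124 bp for comparison peaks. Between 1000 and 2000 bp lay 32.1% of members and 23.1% of comparison peaks, and beyond 10000 bp 11.5% and 18.8%. The nearest TSS belonged to a host gene for 588 members (74.8%), against 66.5% of comparison peaks (odds ratio 1.50, 1.26 to 1.78, Fisher p = 2.21e-06). With the next-ranked peaks as the reference this ratio was 1.23 (exact p = 0.0653), and with 1 peak per gene 1.26 (exact p = 0.0537). For the other 198 members another gene's start was the closest, as at the second strongest peak in ush. The introns that held members had a median length of 12137.5 bp, against 12563 bp for comparison peaks. Split into 5 equal parts from the 5′ end, the introns had 24.0%, 23.8%, 18.3%, 21.0% and 12.8% of the members in turn, and 20.6%, 21.3%, 21.3%, 18.7% and 18.2% of the comparison peaks.

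**Figure D2:**
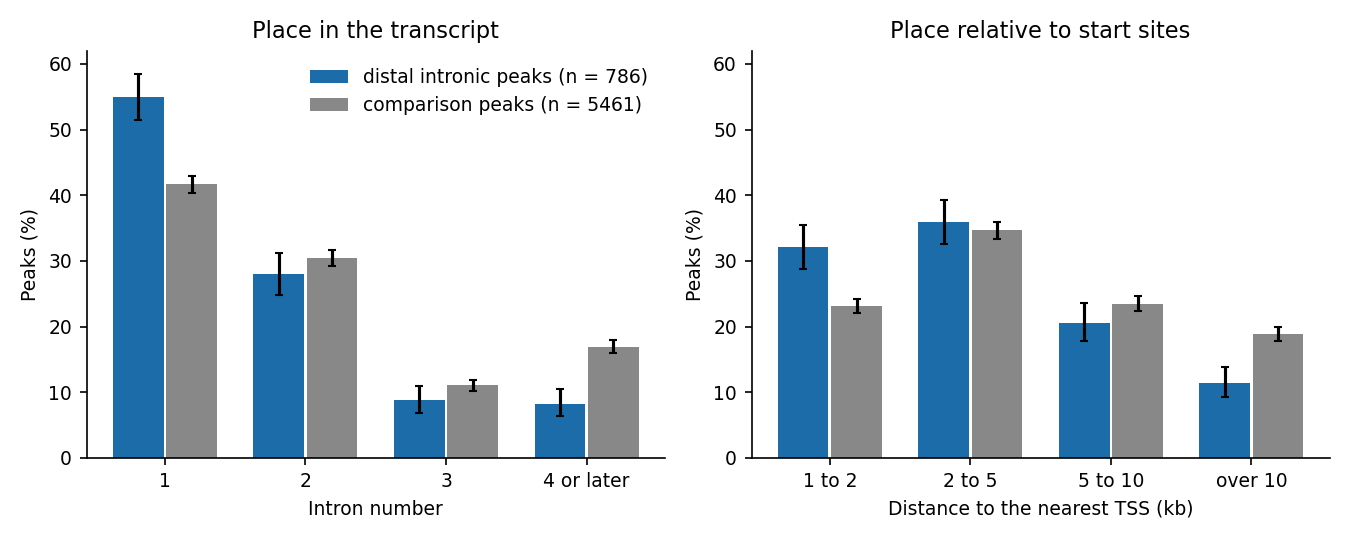
Share of peaks (y, in percent, with exact 95% intervals) by the number of the intron that holds the summit (left) and by distance to the nearest TSS (right), for distal intronic peaks (blue) and comparison peaks (grey). The blue bars stand above the grey ones at intron 1 and at 1 to 2 kb, and below them at intron 4 or later and over 10 kb.

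The members were spread over many genes, most of which had 1. Of the 786 peaks, 771 had a protein-coding gene as the main host and 15 a noncoding one, and 55 lay in introns of more than 1 gene. Among protein-coding genes with any distal intronic sequence 517 of 6862 hosted a member, or 7.53%. Of the 517 host genes 343 held 1 member, 105 held 2, 42 held 3, 14 held 4, and the others more, up to 10. The share of genes that hosted a member climbed with their distal intronic sequence. It was 0.339% of genes with under 1000 bp, 7.83% from 1000 to under 5000 bp, 19.1% to under 20000 bp, 28.6% to under 50000 bp and 36% from 50000 bp on. Per megabase of that sequence the order was another: 13.8, 38.2, 26.0, 16.5 and 7.65 members over the same classes, so the genes with most such sequence held the fewest members per length. Over the genome distal intronic sequence held 15.9 members per megabase, against 6.26 distal peaks per megabase between genes.

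**Figure D3:**
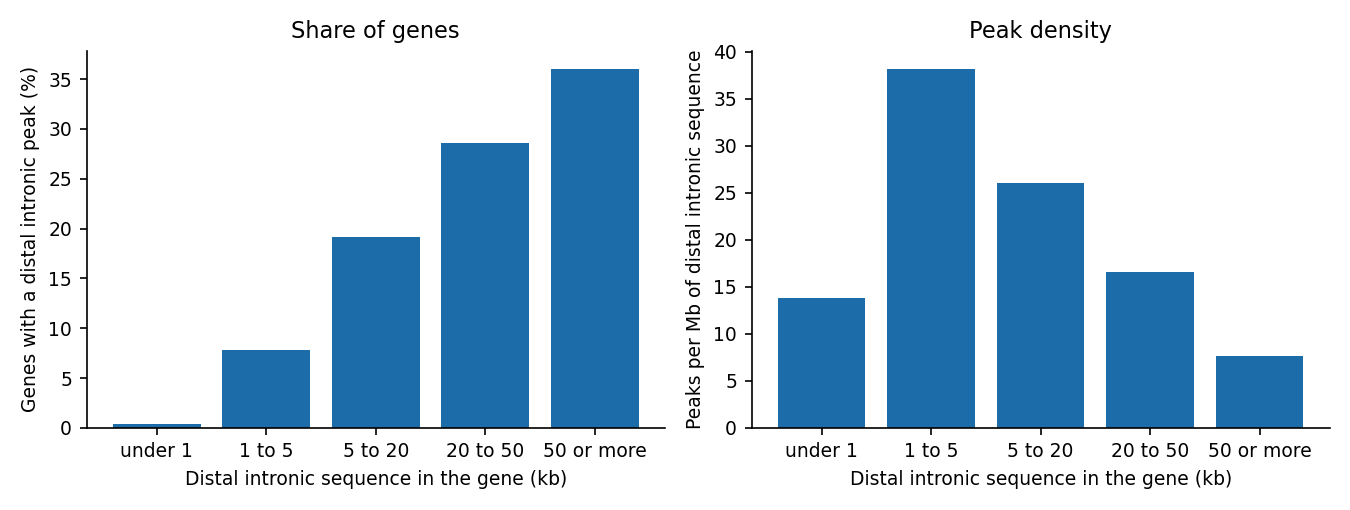
Protein-coding genes by the length of their distal intronic sequence in kb (x): the share with at least 1 distal intronic peak (left, in percent) and the peaks per megabase of that sequence (right). The share climbs with length to 36%, while the density is highest at 38.2 in genes with 1 to 5 kb.

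Several genes held runs of members. Another member of the same gene lay within 5000 bp of 273 members (34.7%), and 452 were in genes with at least 2. Linked at that distance they formed 111 runs, of which 77 had 2 peaks, 22 had 3, 10 had 4, 1 had 5 and 1 had 8. Overlapping peaks count as neighbours here: 44 members overlapped another, and the run of 2 in arr spanned 207 bp. Pairs that matched the same replicate peaks are also in the counts of ush, Dad, Eip75B and Mef2, so these are not all separate sites. The median distance to the nearest other optimal peak was 4655 bp, against 7066 bp for distal intergenic and 5630 bp for promoter peaks. Among the next-ranked distal intronic peaks 27.8% had such a neighbour in their gene. Among comparison peaks 69.9% had one, but that list has many more peaks, so the shares are not comparable.

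The longest run was in sbb, which encodes the corepressor Scribbler. Of its 10 members, all in the first intron of 65649 bp, 8 formed a run over 17800 bp with signals of 71.7 to 167. The run of 5 in Raf spanned 7607 bp of intron 2 with signals of 136, 416, 175, 105 and 139 from the 5′ end inward. In ush the 8 members split into 4 within 5010 bp at the 5′ end, with signals of 1155, 169, 133 and 78.5, and 4 over 10151 bp further in. The strongest of the second group was 121 and the weakest 68.0.

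Other hosts with many members differed in how far these were spread. In CHES-1-like, the gene of a forkhead-type transcription factor, 6 members lay in 27048 bp of gene, the strongest at 233. The gene crp (cropped), which encodes a bHLH protein, likewise held 6 in 24175 bp, and 4 of them were within 7807 bp of its only TSS. In shn, which encodes the zinc finger protein Schnurri of Dpp signalling, 7 members of similar signal, 73.1 to 115, were spread over introns 1 and 2. The other extreme was kirre, an adhesion receptor gene of 394149 bp, where 6 members lay between 46348 and 356817 bp from its 5′ end. The strongest of those, of signal 226, had CG32795 as its main host, a gene inside the span of kirre. Eip75B, the gene of an ecdysone-induced nuclear receptor, had 6 members of 67.8 to 126, and Tlk 5 of 76.5 to 546. The noncoding gene lncRNA:CR44357 of 239347 bp covers 7 members, of which 2 have it as the main host.

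**Figure D4:**
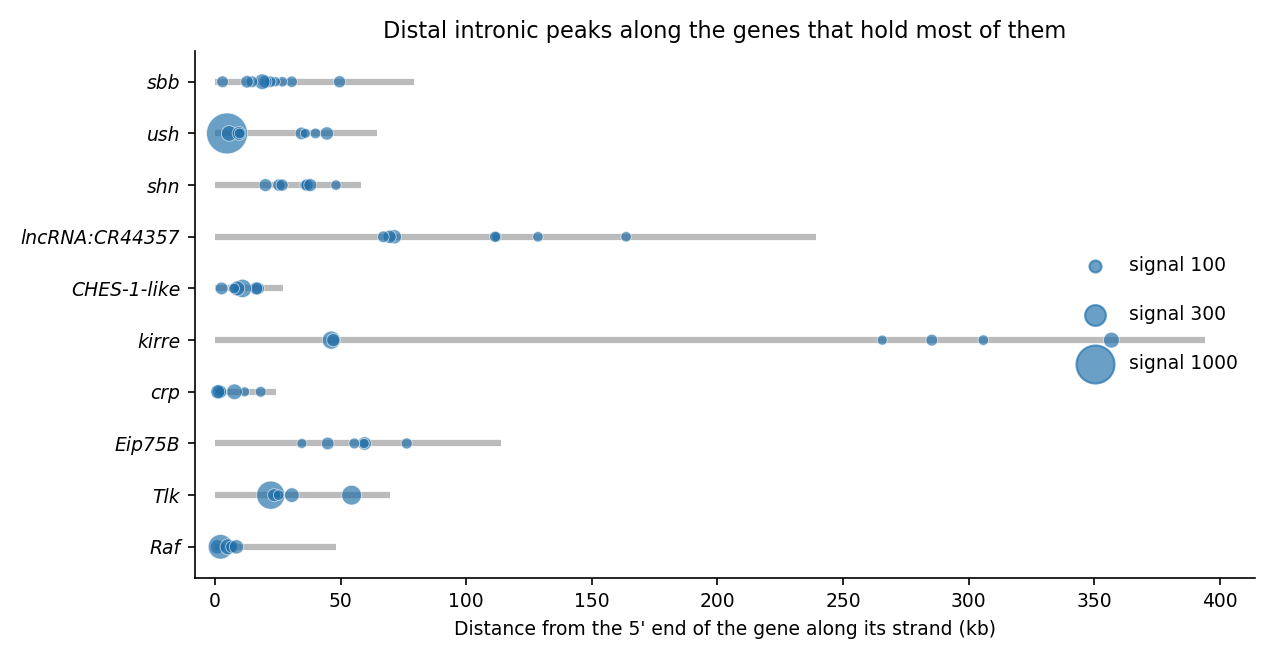
The 10 genes with most distal intronic peaks, 1 per row, drawn as grey bars by distance from the 5′ end in kb (x). Each blue circle is a peak and its area grows with the signal, as the key shows. Peaks gather near the 5′ end in Raf, and 4 of 8 do in ush and 4 of 6 in crp. In kirre 2 peaks lie 784 bp from one another and the others lie apart.

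Genes were also grouped by function. The lists are named by role, their members were chosen with earlier results of these data known, and no list was tested: each count stands beside the 7.53% of all eligible genes and the 15.9 members per megabase overall. Both measures move with length: genes with more distal intronic sequence were hosts more often and, above 1000 bp, held fewer members per megabase. Neither measure was adjusted for it. Among genes of the Dpp (BMP) pathway 10 of 21 were hosts (47.6%), with 34 members at 91.0 per megabase. Of these members sbb held 10 and shn 7. Besides sbb and shn the hosts included Dad, an inhibitory Smad, with a strongest member of signal 225, cv-2, a BMP-binding protein, with 130, and wit, a type II receptor, with 149. The ligand gene dpp had 1 member of signal 111, and its antagonist sog had 3, up to 97.2.

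In the receptor tyrosine kinase and Ras pathway 12 of 31 genes were hosts (38.7%, 45.2 per megabase). They covered several levels of the pathway. The secreted inhibitor aos had 1 member of signal 291, the FGF ligand ths 2, up to 175, Raf 5, and the ETS factors pnt and aop 3 and 2, the strongest at 133 and 86.2. The insulin receptor gene InR had 1, of signal 94.0, and no EGF, FGF or PDGF-type receptor gene was among the hosts.

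Genes of the ecdysone response were hosts in 8 of 18 cases (44.4%, 35.4 per megabase). These encode nuclear receptors and factors that act in hormone cascades. Beside Eip75B, Hr4 held 5 members with signals of 101, 191, 225, 189 and 67.8. The nuclear receptor genes Hr3, EcR and ftz-f1 had 2, 2 and 3 members, the strongest at 280, 160 and 108.

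Chromatin and insulator genes had little distal intronic sequence, with a median of 761.5 bp, and 13 of 44 were hosts (29.5%), at 96.4 per megabase. The strongest members in these genes were those in Trl and trx described above. Mi-2, which encodes a nucleosome remodeller, shared a member of signal 322 with Su(Tpl) as the main host. Sin3A, a corepressor gene, had 1 of 227, Smr, the gene of the SMRTER corepressor, 2 up to 224, and the Polycomb group genes ph-p and Psc had members of up to 159 and 113. Kdm2, which encodes a histone demethylase, had 3 of 72.8, 161 and 159 within 2283 bp.

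Of trachea, salivary gland and heart regulators 7 of 25 were hosts (54.6 per megabase), with 8 of the 16 members in ush, and Mef2, the muscle transcription factor gene, had 3 up to 176. Forkhead and stress-response factors had 6 hosts of 18 (72.5 per megabase), among them CHES-1-like, REPTOR with 181 and sima, the gene of the hypoxia-inducible factor, with 151. Kinases with long genes had 10 of 51 (34.1), among them for with a member of 381 and mnb with one of 251. Circadian clock genes had 5 of 16 (34.7), Notch pathway genes 5 of 19 (22.5) and Wnt pathway genes 4 of 24 (20.5).

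Below the genome-wide density, though above 7.53% in their share of hosts, were homeodomain and segmentation regulators with 4 hosts of 32 (12.5 per megabase), adhesion and axon guidance receptors with 15 of 56 (11.7) and a median of 28354 bp of distal intronic sequence, RNA-binding and splicing regulators with 12 of 35 (11.1) and ion channels with 5 of 31 (8.86). In the Hox gene Antp 4 members had signals of 72.3 to 98.6, and Ubx and Abd-B had 1 each, of 78.6 and 78.8. The Notch receptor gene N had 1 member, of signal 200, in intron 5, and mam, which encodes the coactivator Mastermind, had 3 up to 252. Of the 79 cytoplasmic ribosomal protein genes 6 have distal intronic sequence, in total 0.00136 megabases, and 0 were hosts.

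Host genes also had promoter peaks more often than other genes. Of the 517 protein-coding hosts 240 (46.4%) had an optimal peak within 1000 bp of one of their TSSs, against 1533 of the 6345 other genes with distal intronic sequence (24.2%). The odds ratio was 2.72 (2.27 to 3.26, Fisher p = 8.06e-26). Hosts have more TSSs, with a median of 2 against 1. Among genes with 1 TSS the shares were 34.6% of hosts and 19.6% of others, and over 4 strata of TSS number the pooled ratio was 2.07 (1.71 to 2.51, Mantel-Haenszel p = 4.54e-14 over n = 6862 genes). Pooled over strata of distal intronic length it was 3.33 (2.71 to 4.09). Gene expression in the embryo was not measured here. The test was chosen after the data had been seen.

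The X chromosome held 185 members (23.5%), against 1023 of 5365 comparison peaks on the X and the major autosomes (19.1%). The odds ratio was 1.31 (1.09 to 1.56, Fisher p = 0.00389), a test also chosen after seeing the data. Of promoter peaks 14.7% were on the X, which holds 19.5% of the distal intronic sequence. Per megabase of it there were 19.8 members on the X and 15.6 on chromosomes 2 and 3. Against the next-ranked peaks, of which 21.5% were on the X, the ratio was 1.12 (exact p = 0.325). Chromosome 4 had 0 members in 0.526 megabases of distal intronic sequence, while 96 comparison peaks lay there.

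The DNA at the summits of members was poor in G and C. Windows with 100 bp to each side averaged 35.1% ± 5.81 GC (SD over 786 peaks), against 39.2% ± 7.36 in comparison, 36% ± 5.99 in distal intergenic and 36.5% ± 6.85 in promoter peaks. Below 35% GC were 407 members (51.8%) and 31.7% of comparison peaks (odds ratio 2.32, 1.99 to 2.69, Fisher p = 2.95e-27). In next-ranked peaks it was 47.3%, with a ratio of 1.19 (exact p = 0.0664). The dip was local. The central 51 bp of members averaged 32.3% ± 8.87, and the flanks at 150 to 300 bp 43.1% ± 5.89, a mean difference of -10.9 percentage points. The centre had less GC than the flanks in 663 members (84.4%, exact interval 81.6 to 86.8), in 74.5% of next-ranked peaks, in 68.1% of distal intergenic, in 68.9% of promoter and in 52.9% of comparison peaks.

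Boxes of the KLF family were rare in members. Of 30 motifs searched on both strands in the same windows, 4 (13.3%) were more frequent and 4 (13.3%) less frequent in members than in comparison peaks, by Fisher's exact tests with Benjamini-Hochberg adjustment. The GC box GGGCGGG was in 3 members (0.382%) and in 1.61% of comparison windows (odds ratio 0.234, exact adjusted p = 0.0140). The CACCC box CCACACCC was in 2 (0.254%) and 0.531% (0.478, exact adjusted p = 0.788). Its short core CACCC was in 12.3% and 19.4% (0.585, exact adjusted p = 8.37e-06). Within strata of GC content over the n = 6247 windows, the odds ratios were 0.559 for the GC box and 0.845 for the short core, neither past the threshold. The Pho core GCCAT was in 23% and 34.4%, and the Tead site CATTCC in 5.60% and 9.98%, with ratios of 0.690 and 0.631 within GC strata, both past the threshold. The call of the GC box was lost without replicate 1 (exact adjusted p = 0.0521) and without replicate 3 (exact adjusted p = 0.0506), and that of the Tead site with 1 peak per gene (exact adjusted p = 0.0960).

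The forkhead core TGTTTAC was in 73 members (9.29%) and 5.37% of comparison windows, with a ratio of 1.81 (1.38 to 2.36, exact adjusted p = 0.000212) and 1.65 within GC strata. Against next-ranked peaks the ratio was 1.00 (exact adjusted p = 1). Among the members within the strongest 1675 optimal peaks the core was in 7.04%, with a ratio of 1.34 (exact adjusted p = 0.533). The word ACACTG was in 151 members (19.2%) and 8.64% of comparison windows, a ratio of 2.51 (2.06 to 3.07, exact adjusted p = 9.15e-16), or 2.54 within GC strata and 1.52 against next-ranked peaks (adjusted p = 0.0475), the 1 motif of 30 past the threshold in that comparison. Adjusted over all 2080 words of 6 bases instead, the exact p of ACACTG against next-ranked peaks was 0.377, so this call depends on the family of tests. The TATA-like TATAAA (35.2% and 27.0%) and the Sox core ACAAT (53.4% and 47.2%) were more frequent in members, with ratios of 1.05 and 1.07 within GC strata, neither past the threshold.

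Several motifs, among them elements of promoters, were rarer in members than in promoter peaks. The classes are split by distance to a TSS, near which such elements lie, so this contrast is partly built in. Against promoter peaks 1 motif (3.33%) was more and 6 (20.0%) were less frequent in members. The DNA replication-related element (DRE) TATCGATA was in 2 members (0.254%) and 164 promoter peaks (7.15%), a ratio of 0.0331 (0.00820 to 0.134, exact adjusted p = 4.77e-18). The promoter element motif 1, searched as GGTCACACT, was in 1 member (0.127%) and 68 promoter peaks (2.96%, ratio 0.0417). The word CGATAG was in 4.07% and 16.4% (0.216), the E-box CAGCTG in 6.62% and 12.1% (0.516) and the short CACCC core in 12.3% and 16.7% (0.700). Comparison peaks were close to members in the first 4 of these. They held the DRE in 0.494%, motif 1 in 0.165%, CGATAG in 3.90% and CAGCTG in 6.83%, none past the threshold against members. The ETS site CCGGAAG was in 0 of 786 members, which allows a share of up to 0.382%, and in 22 promoter peaks (0.959%, exact adjusted p = 0.0131). The GATA core AGATAA was in 16.4% of members and 12.1% of promoter peaks (1.42, exact adjusted p = 0.0131). Within GC strata the calls of the short CACCC core, the ETS site and the GATA core were lost and the other 4 stood. Without replicate 1 the exact adjusted p was 0.132 for the GATA core and 0.0720 for the ETS site, and without replicate 3 it was 0.174 for the ETS site and 0.0569 for the short CACCC core. Among the strongest 1675 optimal peaks the call of the E-box was lost as well (exact adjusted p = 0.174). With 200 bp to each side of the summit the ratio of the short CACCC core was reversed, to above 1.

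Every word of 6 bases was then compared in the same windows, a test chosen after the data had been seen. A word and its reverse complement counted as 1, which leaves 2080. Against comparison peaks 231 words (11.1%) were higher and 311 (15%) lower in members, and within GC strata 43 and 10. Against promoter peaks 52 (2.50%) were higher and 104 (5.0%) lower. Against the next-ranked distal intronic peaks 1 word passed, CTGTGC (17.9% of members and 10.1%, odds ratio 1.94, adjusted p = 0.00644), and against distal intergenic peaks 0 passed in Fisher's exact tests with the same adjustment. At an unadjusted p under 0.05 were 111 of the 2080, among them ACAGTG at 0.0152. Many of the words with the highest ratios share letters with one another. ACAGTG was in 192 members (24.4%) and 9.25% of comparison windows, a ratio of 3.17 (exact adjusted p = 8.05e-27), and 3.28 within GC strata. AGTGTA was in 20.4% and 9.65% (2.39), ACTGTA in 16.7% and 7.43% (2.49), and CTGTAC in 10.6% and 4.80% (2.34). Promoter peaks had ACAGTG in 17.3% (ratio 1.54, exact adjusted p = 0.00172), AGTGTA in 12.6% (1.77) and CTGTAC in 5.45% (2.05). Joined, the words CACTGT and CTGTAC give CACTGTAC, which was in 44 members (5.60%), 2.45% of next-ranked, 3.54% of distal intergenic, 1.39% of promoter and 0.971% of comparison windows.

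These words pointed away from the summit. Within 150 bp on each side, CACTGT read only outward in 178 members and only inward in 51, so that 77.7% of these 229 were outward (exact interval 71.8 to 82.9, exact binomial adjusted p = 2.27e-14 over 2016 words that differ from their reverse complement). CAGTGT read outward in 146 and inward in 43 members, CCACTG in 136 and 39, AGTGTA in 150 and 48, and TCAGTG in 142 and 44. The T-rich word TTTCTC also read outward in 167 and inward in 63 members. In all 70 of the 2016 words (3.47%) differed between outward and inward. The same scan called 109 words in the 2294 promoter peaks, 46 in the 938 next-ranked and 8 in the 226 distal intergenic peaks. These sets differ in size, so the counts are not comparable. Among members within the strongest 1675 optimal peaks the outward share of CACTGT was 86.4%.

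The same orientation was seen in peaks that had no part in the choice of these words. In the 938 next-ranked distal intronic peaks CACTGT read outward in 126 and inward in 64 (66.3%), AGTGTA in 159 and 48 (76.8%) and TCAGTG in 147 and 45 (76.6%), with exact binomial p-values adjusted over 12 words of 1.21e-05, 2.63e-14 and 1.88e-13. In the 226 distal intergenic peaks AGTGTA read outward in 64 and inward in 16 (80.0%, exact binomial adjusted p = 7.05e-07), and CACTGT in 31 and 17 (64.6%, adjusted p = 0.0892). Promoter peaks had CACTGT outward in 350 and inward in 180 (66.0%) and CAGTGT in 330 and 254 (56.5%). In comparison peaks the numbers for CACTGT were 366 and 305 (54.5%), and 0 of 2016 words passed the exact binomial test after adjustment, while 150 had an unadjusted p under 0.05, CAGTGT among them at 0.000710. Whether members and promoter peaks differ in orientation was not tested.

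Outward matches of CACTGT within 150 bp lay at a median of 79.5 bp from the summit in members (quartiles 55.5 and 104), against 68.5 bp in comparison peaks (37.5 and 109). Those of TCAGTG lay at 73.5 bp in members (44.5 and 99.5), against 75.5 bp in comparison peaks (41 and 112). In distal intergenic, promoter and next-ranked peaks the medians were 82.5, 80.5 and 72.5 bp for CACTGT. For TCAGTG they were 79.5, 75.5 and 80 bp, so these distances were not particular to members. Within 25 bp lay 16 of 254 matches of CACTGT and 19 of 169 of TCAGTG in members. These distances were not tested. The density of outward CACTGT in members was 0.407 per kb at 0 to 25 bp, 1.83 at 75 to 100 bp and 0.611 at 125 to 150 bp, against 0.260, 0.242 and 0.249 in comparison peaks. Inward matches of CACTGT stayed between 0.229 and 0.407 per kb in members up to 175 bp. At 75 to 100 bp outward CACTGT had 0.973 per kb in distal intergenic, 0.872 in promoter and 0.746 in next-ranked peaks. Outward TCAGTG had 0.992 there in members, 1.50 in distal intergenic, 0.523 in promoter and 0.768 in next-ranked peaks. At least 1 of the 5 leading words read outward in 439 members (55.9%), in 45.6% of next-ranked, 57.1% of distal intergenic, 43.1% of promoter and 26.6% of comparison peaks. On both sides they did in 139 members (17.7%), in 10.9%, 18.6%, 7.80% and 2.82% of the same sets. Inward on both sides they did in 18 members (2.29%).

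Within the members no difference by signal or intron number was detected in how often outward words occurred. The outward share of a word was not tested by signal. For CACTGT that share was higher, as given above, in the members among the stronger optimal peaks than in all members. Outward words on both sides were in 17.8% of the 393 stronger and 17.6% of the 393 weaker members (odds ratio 1.02, 0.705 to 1.47, Fisher p = 1), and in 16.9% of first-intron and 18.6% of other members (0.887, 0.615 to 1.28, p = 0.573). On either side they were in 59.3% of the stronger and 52.4% of the weaker members (1.32, 0.997 to 1.75, exact p = 0.0617). Of the 786 members 5 shared any run of 25 bases with a member elsewhere, and 1 of those had words on both sides. The soft-masked share of the sequence averaged 17.6% in the 139 members with both sides and 20.6% in the others.

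**Figure D5:**
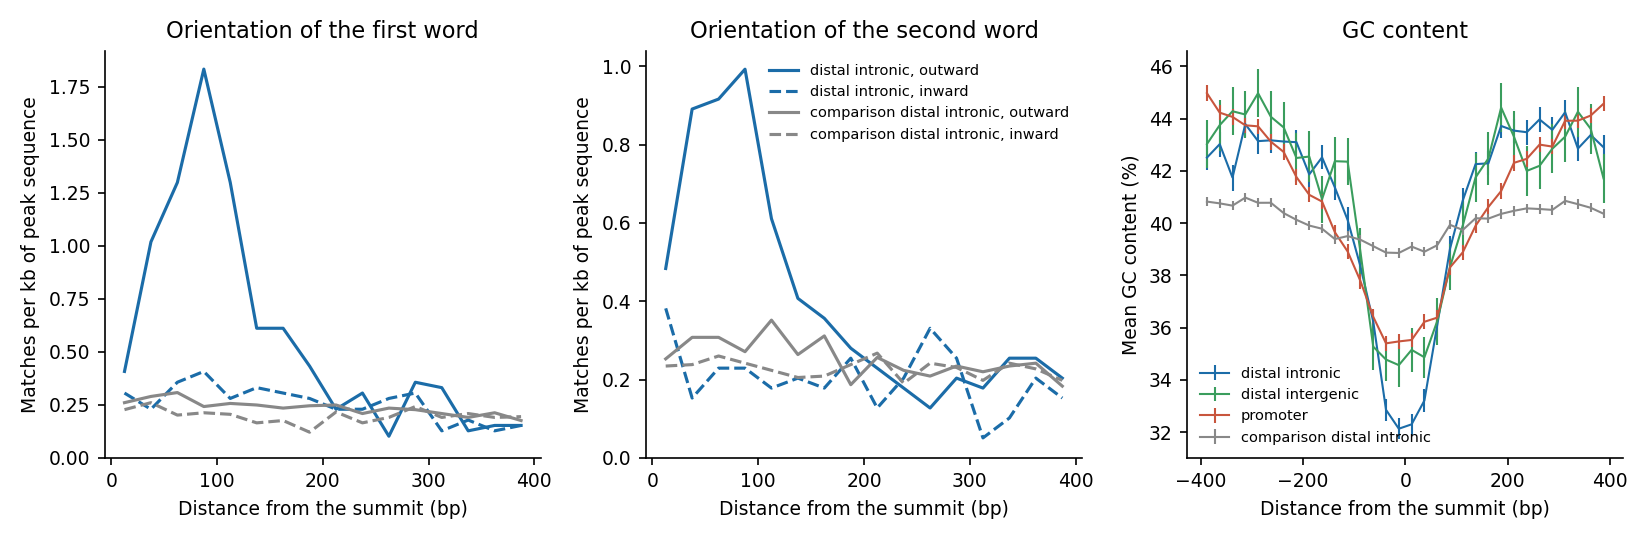
Left and middle: matches per kb of peak sequence (y) by distance from the summit in bp (x) for CACTGT (first word) and TCAGTG (second word), outward as solid and inward as dashed lines, in distal intronic (blue) and comparison (grey) peaks. Right: mean GC content in bins of 25 bp, with the standard error, by location class. Outward matches of both words peak at 75 to 100 bp in members, where GC content climbs from its lowest values at the centre.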

How the data were processed

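The files used were the authors' deposited peak lists on dm6: a relaxed list for each of the 2 replicates, 1 for the pooled replicates and the optimal set that passed an irreproducible discovery rate step, per the notes beside the files. The authors' signal value per peak has a scale of its own in each list, so it ranks peaks within a list only. The deposited −log10 q-value is the same at the top of each list and was not used to rank. The aligner, the peak caller and their thresholds were not given in the sources used here. Embryos of 4 to 20 h follow the source name, because the labels' age field is damaged. Whether the libraries came from separate collections is not stated beyond their replicate numbers, and their spread may be technical.

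Summits were classed with the Ensembl release 115 annotation (18277 genes, 23694 TSS positions, transposable elements left out) and the Release 6 sequence of RefSeq, all coordinates 1-based. The main host was protein-coding where possible, then the gene with the nearest TSS of its own. Peaks matched between lists when they shared at least 1 bp. Shares were compared by Fisher's exact test (two-sided), with sample odds ratios and 95% intervals after Woolf, and GC strata of 5 points by Mantel-Haenszel. Orientation was tested by exact binomial tests over peaks with the word in 1 orientation only. Families of 30 motifs, 2080 words or 2016 oriented words were adjusted by Benjamini-Hochberg at 0.05. Intervals cover counting error only.

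Named genes are hosts of the 15 strongest members, the 10 with most members and up to 3 of each of 16 lists. Further list members, and cbt and CG16753 as neighbours, were added after their values were seen. Some of these results are not reported here. Of 609 listed symbols 8 were unmatched and 22 matched through synonyms. Members and lists were chosen with earlier results of these data known, and the word, orientation, X and promoter-peak tests after the data had been seen. The word tests were tried on simulated data. Alternatives left out a replicate or changed thresholds, windows and reference peaks. The tools were statsmodels 0.14.6, SciPy 1.17.1, pandas 2.3.3, NumPy 2.4.6, matplotlib 3.10.9 and Python 3.11.15. Tests over peaks or genes of 1 pooled list treat peaks as separate items, although neighbours can share a gene, and depth per library is unknown.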

Additional observations from a re-analysis of the deposited data

How the results depend on the processing

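Of 103 recomputed values of the comparisons 77 kept their call or stayed within their error. Of the others 20 moved, 5 were weaker and 1 was stronger. For single motifs 171 values were recomputed, of which 130 stayed the same, 39 were weaker and 2 were reversed. Among the strongest 1675 optimal peaks members were 20.4% of peaks, 255 protein-coding genes were main hosts against 491, 23.5% of members had a neighbour within 5000 bp, and 5 motifs differed from comparison and 4 from promoter peaks. With distal meaning over 500 bp members were 30.1%, and over 2000 bp 15.9%, where 4 motifs differed from promoter peaks. Neighbours within 2000 bp gave 21.2% of members and 46.3% of comparison peaks, within 10000 bp 43.6% and 80.3%. With next-ranked peaks as the reference, 27.8% of these had a neighbour within 5000 bp, 1 motif differed, the nearest TSS was a host's with a ratio of 1.23, low GC had 1.19, the X 1.12 and TATAAA 0.998. Within GC strata 4 motifs differed in each comparison, and with 200 bp to each side 4 from promoter peaks. There the short CACCC core had 1.12, the reverse of its main direction. With 1 peak per gene the nearest TSS had 1.26 and the strongest 1675 held members with a ratio of 1.41 to intergenic and 0.893 to promoter peaks. The ratios to intergenic and promoter peaks rest on members kept by their signal, the measure compared, so they cannot tell whether the classes differ. Summits within 100 bp put 85.9% and 77.0% of members among the strongest of replicates 1 and 3. Without replicate 1 or 3 the neighbour share of comparison peaks was 63.3% and 69.3%. The cause of these changes was not tested.

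No paired analysis was possible because there is 1 group. The outward share of both words tested kept its call under every alternative run, from 73.0% to 86.4%. Depth is unknown, no control was analysed and comparison peaks may include background. Against next-ranked peaks the ratio of first introns was 1.22 in place of 1.71, and that of ACACTG 1.52 in place of 2.51.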
